A study of Mus musculus with 6 samples.

Results

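The genes described here are 45 genes of the G2/M transition and mitosis, measured in mouse satellite cells, the stem cells that repair skeletal muscle. They were taken by symbol from a fixed list with no cut on a measured value, but the list was chosen with earlier results of these data known. All 45 were found among the 24067 symbols that both deposited expression tables share. Polyadenylated RNA was compared between 4 libraries, 1 per group: satellite cells activated by 36 h of culture (ASC) labelled iKO for Yy1 and ASC labelled wild type (WT), and freshly isolated satellite cells (FISC) labelled iKO for Yy1 and FISC WT. A list of YY1 peaks came from 1 chromatin immunoprecipitation library of ASC labelled C57 with 1 input library. The labels give muscle as the source for all samples and a growth medium with serum for the culture, while strain and age of the animals of the RNA libraries, the way Yy1 was deleted and any pooling of animals are stated nowhere in those labels. With 1 library per group, no difference below has a replicate check, and fewer dividing cells and less RNA per cell cannot be told apart.

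Mitotic entry is driven by CDK1 bound to cyclin A or cyclin B, whose genes are transcribed late in the cell cycle together with those for the spindle, the kinetochores, condensin and the division furrow. In the resting state, repressive complexes built on the MuvB core hold these genes silent, and in dividing cells MuvB with B-Myb and FOXM1 activates them. Their promoters are known for CCAAT boxes, read by NF-Y, and for the cell cycle genes homology region (CHR), with the core TTTGAA, which MuvB contacts. Satellite cells in uninjured muscle are quiescent and divide once activated.

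The promoter letters of these genes are shown first because the genes share them whatever their level. RefSeq windows of build GRCm38.p6, from 250 bases before the annotated start to 50 after it, were found by symbol for 36 of the 45 genes, in 38 windows. The CHR core TTTGAA, searched on both strands, stood in 31 of the 38 windows, or 81.6%, against 17.9% of all 32851 windows. It lay within 50 bases of the start in 28 of the 38 windows, against 4.94% of all windows, and 30 of the 41 matches were on the gene's strand. A CCAAT box on either strand was found in 30 windows (78.9%), against 37.4% of all windows. More than 1 stood in 20 of the 38 windows, against 11.7% of all windows. Both motifs occurred in 27 windows, 71.1%, against 6.95% of all windows. Matches of the motifs could overlap each other, and a match is a string of letters and not a shown binding site.

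The stretches below run from 150 bases before the start to 30 after it, 5′ to 3′ on the gene's strand, with TTTGAA or its complement TTCAAA and CCAAT or its complement ATTGG in capitals. The first 5 belong to the genes with the lowest ratio of iKO to WT in activated cells among those with a window, the next 4 to the genes whose ratio was above 0, and the last pair to the genes with a YY1 peak near a locus end.
Anln, chr9:22389177-22389356, minus strand: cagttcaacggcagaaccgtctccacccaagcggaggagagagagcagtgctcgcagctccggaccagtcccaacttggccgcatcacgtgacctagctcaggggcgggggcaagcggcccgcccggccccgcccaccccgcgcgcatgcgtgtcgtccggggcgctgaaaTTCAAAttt
Cenpe, chr3:135212413-135212592, plus strand: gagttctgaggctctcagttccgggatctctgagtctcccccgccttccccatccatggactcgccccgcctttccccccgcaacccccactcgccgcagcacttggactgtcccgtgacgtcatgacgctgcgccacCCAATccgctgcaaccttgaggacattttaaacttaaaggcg
Kif11, chr19:37376232-37376411, plus strand: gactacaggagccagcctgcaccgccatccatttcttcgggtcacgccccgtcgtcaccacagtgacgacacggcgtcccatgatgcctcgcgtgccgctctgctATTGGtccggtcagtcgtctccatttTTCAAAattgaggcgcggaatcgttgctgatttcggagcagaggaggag
Prc1, chr7:80294301-80294480, plus strand: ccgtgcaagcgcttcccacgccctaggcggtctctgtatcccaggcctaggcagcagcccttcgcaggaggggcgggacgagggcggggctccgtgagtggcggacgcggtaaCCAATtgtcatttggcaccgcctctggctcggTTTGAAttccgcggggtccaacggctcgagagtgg
Cenpf, chr1:189688057-189688236, minus strand: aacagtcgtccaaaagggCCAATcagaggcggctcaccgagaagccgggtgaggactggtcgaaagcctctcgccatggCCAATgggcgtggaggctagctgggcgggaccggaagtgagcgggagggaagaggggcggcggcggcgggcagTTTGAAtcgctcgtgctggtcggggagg
Cdk1, chr10:69352883-69353062, minus strand: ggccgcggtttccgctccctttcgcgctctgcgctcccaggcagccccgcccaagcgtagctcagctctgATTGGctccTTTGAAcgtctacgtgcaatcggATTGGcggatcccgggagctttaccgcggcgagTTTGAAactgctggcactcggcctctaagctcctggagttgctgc
Birc5, chr11:117849087-117849266, plus strand: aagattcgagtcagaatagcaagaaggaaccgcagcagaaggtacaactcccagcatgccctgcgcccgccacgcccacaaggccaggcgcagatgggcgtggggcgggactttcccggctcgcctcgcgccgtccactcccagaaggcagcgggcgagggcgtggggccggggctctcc
Cenpa, chr5:30666736-30666915, plus strand: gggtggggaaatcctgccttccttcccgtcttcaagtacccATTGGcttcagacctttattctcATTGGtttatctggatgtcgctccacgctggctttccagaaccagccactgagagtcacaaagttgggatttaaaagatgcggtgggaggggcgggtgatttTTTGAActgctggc
Spc25, chr2:69206184-69206363, minus strand: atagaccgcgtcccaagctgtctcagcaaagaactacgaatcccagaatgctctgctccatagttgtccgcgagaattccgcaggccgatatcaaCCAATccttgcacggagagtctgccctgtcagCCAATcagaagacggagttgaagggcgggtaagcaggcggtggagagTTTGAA
Aurka, chr2:172370541-172370720, minus strand: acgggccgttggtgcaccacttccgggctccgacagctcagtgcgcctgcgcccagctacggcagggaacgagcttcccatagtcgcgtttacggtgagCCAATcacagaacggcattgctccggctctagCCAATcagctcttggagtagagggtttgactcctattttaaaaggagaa
Ndc80, chr17:71526828-71527007, minus strand: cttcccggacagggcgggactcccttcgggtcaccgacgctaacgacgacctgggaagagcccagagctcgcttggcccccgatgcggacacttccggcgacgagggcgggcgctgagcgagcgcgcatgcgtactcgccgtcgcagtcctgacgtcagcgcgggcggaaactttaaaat
Anln, Kif11, Prc1 and Cenpf, all at least 2-fold lower in the activated iKO library, carry a capital TTTGAA or TTCAAA, and so do Cdk1, Cenpa and Spc25, which were not lower. Cenpe and Birc5 carry neither form in this stretch, so genes with and without it stood on both sides. Cenpe does hold the CHR variant TTTAAA in the stretch, and Birc5 holds that variant in its longer window. Aurka and Ndc80 carry TTTGAA or TTCAAA in the longer window, outside the stretch shown.

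**Figure D1:**
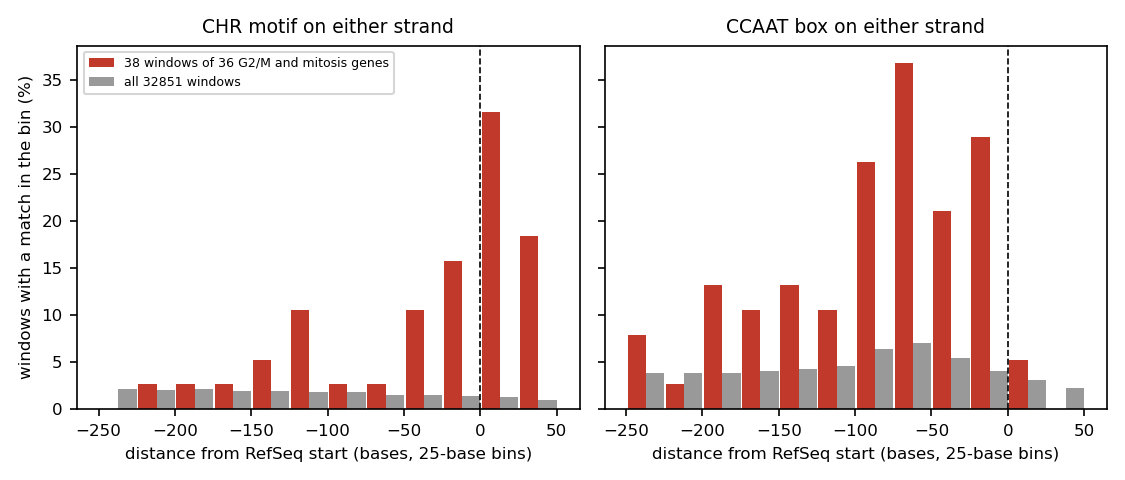
Share of promoter windows (y axis, percent) with the CHR core (left) or a CCAAT box (right) starting in each 25-base bin, by distance from the RefSeq start (x axis, bases). Red bars are the 38 windows of 36 mitotic genes and grey bars all 32851 windows: the CHR core peaks at 31.6% of the mitotic windows in the first 25 bases after the start, and CCAAT at 36.8% between 75 and 50 bases before it.

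Of 10 motif strings searched, the others stood in 9 of the mitotic windows or fewer. The CHR variant TTTAAA stood in 9 of 38 windows (23.7%), against 13.2% of all windows, and TTCGAA in 3 (7.89%), against 1.56%. The short YY1 motif CCATNTT was in 7 windows (18.4%), against 16.1% of all windows. Its form AAGATGG, a case of CCATNTT read on the other strand, was in 1 window (2.63%, against 6.34%), and a longer YY1 string that extends it in 0 of 38, against 0.633%. Of the E2F-type strings, TTTGGCGC and TTTCCCGC were in 1 window each, against 0.514% and 1.07% of all windows, and TTCCCGCC in 0, against 2.19%. Promoters of G1/S and DNA replication genes held TTTGAA in 17.5% of 40 windows, close to the share of all windows, and those of other mitotic genes in 46.7% of 75.

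Levels are in FPKM, fragments scaled by transcript length and library size. Yy1, the gene named in the iKO labels, was at 2.03 FPKM in ASC iKO and 55.2 in ASC WT, and at 20.1 in FISC iKO and 51.0 in FISC WT. The satellite cell markers Myod1, Des, Myf5 and Pax7 were present in all 4 libraries. Pax7 was at 6.19 FPKM in ASC iKO and 28.3 in ASC WT, and the 12 satellite cell markers had a median ratio of −0.51 there. Immune markers summed to 16.9 FPKM in ASC iKO and 4.52 in ASC WT over 9 genes. Of these, 6 were higher in ASC iKO, led by Cd14 (9.75 and 2.80 FPKM) and Cd68 (5.16 and 1.36). Csf1r was lower (0 and 0.0535), and Ptprc and Adgre1 were at 0 in both. Fibroblast markers summed to 20.1 FPKM in ASC iKO and 43.3 in ASC WT over 7 genes, and endothelial markers to 2.88 and 2.93 over 5. The part of these other cell types in the ratios was not tested. Total depth is unknown, and so is the scaling behind the FPKM. If each library was scaled by its own reads, the smallest steps of low values put ASC iKO at 0.664 reads per ASC WT read. The like value for FISC iKO was 1.00 per FISC WT read. FPKM sums without small RNA genes were 746356 in ASC iKO and 502224 in ASC WT, and 527718 in FISC iKO and 542097 in FISC WT. Over all symbols the sums were 1245940 in ASC iKO and 505469 in ASC WT, and 531371 in FISC iKO and 545755 in FISC WT. The highest single entry was 496241 FPKM in ASC iKO and 3558 in ASC WT, and its part in the ASC ratios was not tested.

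In activated cells, 41 of the 45 genes had a lower FPKM in the iKO library than in the WT library, when 50.2% of the 11215 genes measured in ASC had a ratio below 0. At least 2-fold lower were 17 of 45 genes, or 37.8%, against 8.26% of all genes measured, and 0 of 45 were at least 2-fold higher, against 8.74%. All 45 reached at least 1 FPKM in both ASC libraries, so none was lost to the filter. Ratios are log2((iKO FPKM + 1)/(WT FPKM + 1)), the added 1 understates the change of low genes, and 2-fold is a size limit with no test behind it. The median ratio was −0.81, against −0.00 for all genes measured, and the genes ran from −2.06 for Kif20a to 0.35 for Spc25. Summed over the 45 genes, the level was 731 FPKM in ASC iKO and 1112 FPKM in ASC WT. The order of levels was largely shared, with a Spearman rho of 0.89 between the ASC iKO and ASC WT libraries over the 45 genes, given as a description. Scaling the ASC pair to equal sums, chosen after the data were seen, shifted the median of all genes by −0.49 and left 29 of 45 members at least 2-fold lower and 0 higher, against 22.0% and 1.46% of all genes. Upper-quartile scaling shifted it by −0.12, with 19 of 45 members lower and 0 higher, against 10.7% and 5.82% of all genes. At a limit of 1.5-fold on the deposited scale 27 of 45 were lower, against 20.2% of all genes.

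**Figure D2:**
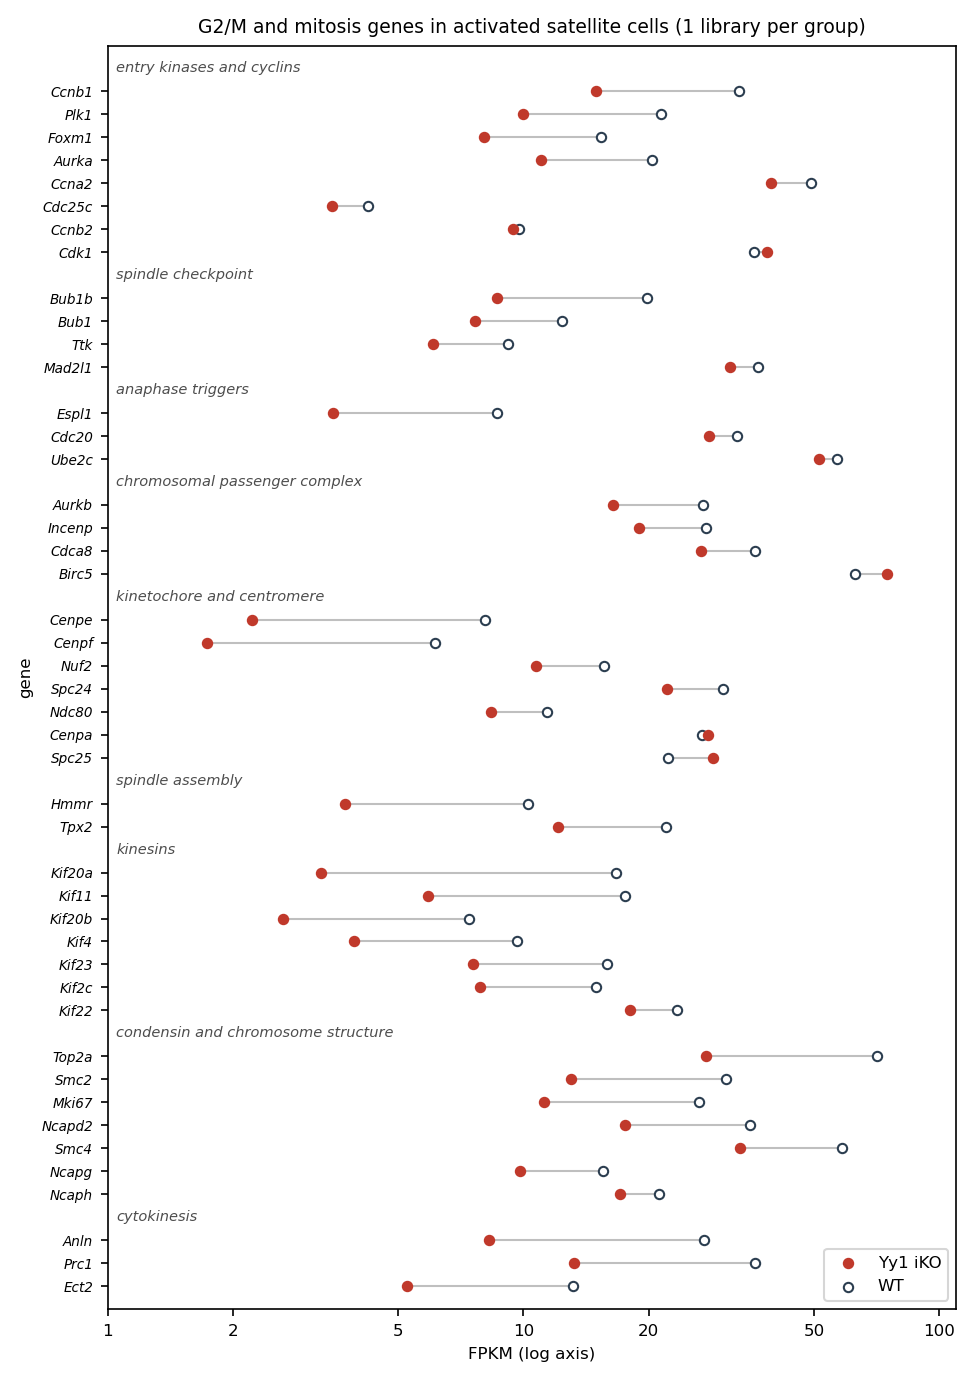
FPKM in activated cells (x axis, log scale) for each of the 45 genes (y axis, grouped by role), with the Yy1 iKO library as filled red points, the WT library as open points and 1 library per group. The iKO point lies left of the WT point for 41 genes, and right of it for Cdk1, Cenpa, Birc5 and Spc25 on the deposited scale. Upper-quartile scaling turned Cdk1 and Cenpa, and scaling to equal sums turned all 4.

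Among the kinases, cyclins and their regulators that start mitosis, 7 of 8 had a ratio below 0 and the median was −0.57. Ccnb1, the main cyclin of mitotic entry, stood at 15.0 FPKM in ASC iKO and 33.1 in ASC WT, and at 0.217 in FISC iKO and 0.218 in FISC WT. It was 2.13-fold lower in the activated iKO library and nearly equal in the fresh pair. Plk1, a kinase for centrosome maturation and cohesin removal, stood at 9.95 FPKM in ASC iKO and 21.5 in ASC WT, a ratio of −1.04 and the smallest that passed 2-fold. Cdk1 itself stood at 38.6 FPKM in ASC iKO and 35.9 in ASC WT, a ratio of 0.10. Upper-quartile scaling turned it to −0.03 and scaling to equal sums to −0.45. On the first 2 of these scales, RNA of the kinase subunit was at a like level in both libraries while that of its B1 partner was not. Ccnb2, the second B-type cyclin, was at 9.44 FPKM in ASC iKO and 9.74 in ASC WT, and at −0.55 under scaling to equal sums. Ccna2, the A-type cyclin, was at 39.4 and 49.1 FPKM in those libraries, and its listed locus is shared with Exosc9, which was at 84.0 and 47.2. Aurka, the centrosomal Aurora kinase (11.0 FPKM in ASC iKO and 20.4 in ASC WT), and Foxm1, the transcription factor that activates this set (8.02 and 15.4), were within 2-fold at −0.84 and −0.86. Cdc25c, a phosphatase that activates CDK1, was the lowest in ASC WT of all 45 genes, at 3.46 FPKM in ASC iKO and 4.22 in ASC WT.

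The 4 spindle checkpoint genes, which hold anaphase until kinetochores are attached, all had ratios below 0, with a median of −0.58. Bub1b, which encodes the checkpoint inhibitor BubR1, stood at 8.65 FPKM in ASC iKO and 19.9 in ASC WT, 2.16-fold lower. In fresh cells it was the second highest of the 45, at 5.63 in FISC iKO and 4.39 in FISC WT. Bub1, a kinetochore kinase, was at 7.63 and 12.4 FPKM in ASC iKO and ASC WT, Ttk, the kinase at the head of the checkpoint, at 6.08 and 9.17, and Mad2l1, the inhibitor of CDC20, at 31.4 and 36.7. Of the anaphase triggers, Espl1, which encodes separase, the protease that cuts cohesin, was at 3.49 FPKM in ASC iKO and 8.65 in ASC WT, 2.15-fold lower. Cdc20, the activator of the anaphase-promoting complex, was at 27.9 FPKM in ASC iKO and 32.6 in ASC WT and shares its listed locus with Elovl1. Ube2c, the ubiquitin-conjugating enzyme of that complex, was at 51.5 and 56.7. These 2 activators were within 1.16-fold and 1.10-fold of the WT level as deposited. Subtracting the median of genes of like length moved their ratios to −0.47 for Cdc20 and −0.81 for Ube2c, and scaling to equal sums to −0.76 and −0.70.

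Subunits of the chromosomal passenger complex, which corrects attachments and directs the cleavage furrow, were unequal. Aurkb, its kinase, stood at 16.5 FPKM in ASC iKO and 27.0 in ASC WT, a ratio of −0.68. Incenp, the scaffold, was at 19.0 and 27.6 FPKM, and Cdca8, which encodes borealin, at 26.7 and 36.1. Birc5, which encodes survivin, was at 74.9 FPKM in ASC iKO and 62.7 in ASC WT, a ratio of 0.25 that kept its sign under upper-quartile scaling (0.12) but not under scaling to equal sums (−0.31). None of the 4 reached 2-fold, and Birc5 had the highest level of all 45 genes in the ASC iKO library, where Top2a had it in ASC WT.

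Kinetochore genes had the widest range of ratios of the 9 roles. Cenpe, a motor that carries chromosomes to the spindle equator, stood at 2.22 FPKM in ASC iKO and 8.09 in ASC WT, 2.83-fold lower. Cenpf, a large outer kinetochore protein, was at 1.73 and 6.12 FPKM, 2.60-fold lower and the lowest level of all 45 genes in the iKO library. Both are long loci on mm9, Cenpe at chr3:134875526-134936504 and Cenpf at chr1:191464492-191511965. The NDC80 complex, a rod of 4 proteins that grips microtubules, was within 2-fold throughout. Ndc80 was at 8.35 FPKM in ASC iKO and 11.4 in ASC WT, Nuf2 at 10.7 and 15.6, Spc24 at 22.2 and 30.3, and Spc25 at 28.6 and 22.3. Spc25 thus stood on the other side of 0 from its 3 partners, and did not under scaling to equal sums (−0.20). Cenpa, the histone variant that marks centromeres, was at 27.9 and 26.9 FPKM, a ratio of 0.05 that upper-quartile scaling turned to −0.09.

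All 7 kinesins, the microtubule motors of the list, had ratios below 0, with a median of −1.12 and 4 at least 2-fold lower. Kif20a, a motor of the late spindle and the furrow, stood at 3.25 FPKM in ASC iKO and 16.7 in ASC WT, 4.17-fold lower and the lowest ratio of the 45 genes. In fresh cells it was at 0.306 FPKM in FISC iKO and 0.282 in FISC WT. Its listed locus is shared with Cdc23 and Brd8, which were at 15.8 and 17.0 FPKM in ASC iKO and 25.3 and 20.8 in ASC WT, so fragments could be split between them. Kif11, the motor that pushes spindle poles apart, was at 5.89 FPKM in ASC iKO and 17.6 in ASC WT, 2.70-fold lower. Kif20b was at 2.64 and 7.40 FPKM and Kif4, a chromosome-bound motor, at 3.90 and 9.65, both past 2-fold. Kif23, the motor of the central spindle, lay just short of 2-fold at 7.58 and 15.9 FPKM, a ratio of −0.98. Kif2c, a microtubule depolymerase, was at 7.85 and 15.0 FPKM, and Kif22, which moves chromosome arms, stood closest to WT at 18.1 and 23.4. Of the spindle assembly factors, Hmmr was at 3.72 FPKM in ASC iKO and 10.3 in ASC WT, and Tpx2, the activator of Aurora A, at 12.1 and 22.0.

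Condensin and chromosome structure genes also had all 7 ratios below 0, with a median of −0.96 and 3 past 2-fold. Top2a, the topoisomerase that untangles sister chromatids, was the highest of the 45 genes in ASC WT at 71.1 FPKM and stood at 27.5 in ASC iKO, 2.53-fold lower. Mki67, a coat protein of mitotic chromosomes and a marker of proliferation, was at 11.2 FPKM in ASC iKO and 26.4 in ASC WT. The condensin ATPases were Smc2 at 13.0 FPKM in ASC iKO and 30.8 in ASC WT and Smc4 at 33.1 and 58.3, so only Smc2 passed 2-fold. Their condensin I partners were Ncapd2 at 17.5 and 35.0 FPKM, Ncapg at 9.82 and 15.5, and Ncaph, the kleisin that closes the ring, at 17.1 and 21.2. Ratios within this complex ran from −1.18 for Smc2 to −0.29 for Ncaph, and Ncapg shares its listed locus with Lcorl and Gm3414.

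The cytokinesis genes were the group with the lowest median, −1.39, and all 3 were at least 2-fold lower. Anln, which encodes anillin, the scaffold of the contractile ring, stood at 8.26 FPKM in ASC iKO and 27.2 in ASC WT, 3.04-fold lower. Prc1, which bundles the central spindle, was at 13.2 and 36.1 FPKM, and Ect2, the exchange factor that activates RhoA at the furrow, at 5.24 and 13.1. Summed by role, the iKO level was 34.9% of WT for cytokinesis genes, 46.5% for kinesins and 50.1% for condensin and chromosome structure, but 89.4% for the passenger complex and 84.6% for the anaphase triggers.

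Longer genes had lower ratios in activated cells, over all genes and within the 45. Over the 45 genes the Spearman rho of the ratio with log10 locus length was −0.66 and Pearson's r −0.58, against −0.44 and −0.40 over 11215 genes, as descriptions across genes that share the same libraries. Of the 12 members over 40 kb, 10 were at least 2-fold lower with a median of −1.19. Of the 8 members under 10 kb only Ccnb1 was, with a median of −0.22. The long members fell in length deciles 7 to 10, where 8.83% to 19.5% of all genes per decile were at least 2-fold lower. The short members fell in deciles 1 to 3, where 2.41% to 3.03% of all genes were. Decile limits differ from these kb limits, so the shares are only a rough match. Yet 44 of the 45 genes lay below the median of all genes in their own decile of length, the exception being Spc25. With that decile median subtracted, 14 of 45 were still at least 2-fold lower, against 6.69% of all genes, and the median was −0.82. Bub1b, Kif20b, Kif4, Smc2 and Ect2 were then within 2-fold (−0.94, −0.89, −0.70, −0.87 and −0.86), and Aurkb (−1.07) and Ncapd2 (−1.01) passed it. Kif20a, with a listed locus of 53.1 kb, has a RefSeq gene of 8654 bases on GRCm38.p6. With RefSeq lengths in place of listed loci, used after the data were seen, the count was again 14 and the median −0.83. Without the 9 members whose listed locus is shared with another gene, 15 of 36 were at least 2-fold lower. What the relation with length rests on was not tested.

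**Figure D3:**
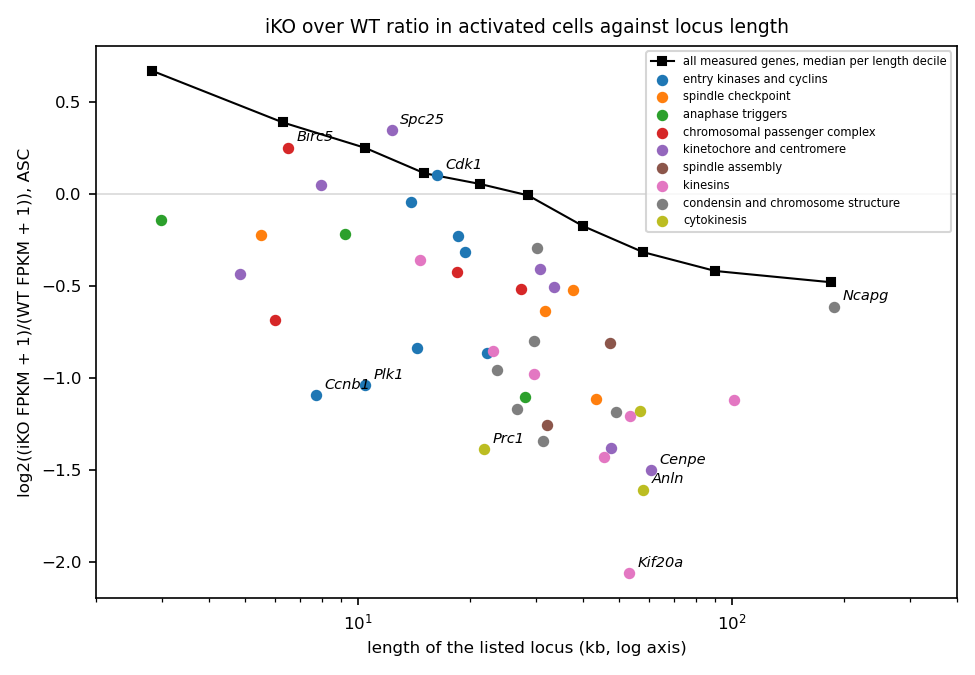
Log2 ratio of iKO to WT in activated cells (y axis) against length of the listed locus (x axis, kb, log scale), with the 45 genes as points coloured by role and the median of all measured genes per length decile as black squares. The black line runs from 0.67 in the shortest decile to −0.48 in the longest, and 44 of the 45 genes lie below the median of their decile.

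In freshly isolated cells the list was low. The median level was 0.561 FPKM in FISC iKO and 0.404 in FISC WT, 18 and 15 of the 45 genes reached 1 FPKM, and in FISC WT Cdc25c, Bub1 and Aurkb were listed at 0. At least 2-fold lower were 0 of 45 and at least 2-fold higher 0 of 45. With 1 added, however, a gene under 1 FPKM in both fresh libraries cannot reach 2-fold. Of the 18 members with at least 1 FPKM in a fresh library, 0 were lower and 0 higher, against 0.721% and 0.677% of the 11229 genes measured. Above 0 were 27 of the 45 and below 0 were 18, with 50.4% of all measured genes below 0, and the median over the 45 was 0.09. The counts above and below 0 are over all 45, because only 18 passed the filter of 1 FPKM in at least 1 fresh library. Smc4, the highest, stood at 14.2 FPKM in FISC iKO and 18.4 in FISC WT, a ratio of −0.36 and the lowest in this pair. Ube2c was at 1.40 FPKM in FISC iKO and 0.473 in FISC WT, a ratio of 0.70 that became 1.39 with 0.1 added in place of 1. On that scale 4 of all 45 were at least 2-fold higher (Ube2c, Espl1, Ect2 and Ndc80) and 1 lower (Nuf2), of which only Ube2c reached 1 FPKM in a fresh library. No share of all genes on that scale is given here, so these counts show no difference from other genes. Espl1 was at 0.698 and 0.251 FPKM, Cdc20 at 2.02 and 1.24, and Cdk1 at 0.777 and 0.347. Aurkb and Bub1 were close to absent, with Aurkb at 0.0652 FPKM in FISC iKO and 0 in FISC WT and Bub1 at 0.0556 and 0. The condensin subunits were spread, with Ncapd2 at 4.64 FPKM in FISC iKO and 3.58 in FISC WT, Ncaph at 3.13 and 2.59, Smc2 at 1.12 and 0.887, and Ncapg at 0.0657 and 0.0989. Cenpa was at 2.17 and 1.38 FPKM, Birc5 at 1.71 and 1.38, and Mad2l1 at 1.73 and 1.36. Top2a, the highest of the 45 in activated WT cells, was at 0.505 FPKM in FISC iKO and 0.644 in FISC WT, and Mki67 at 0.618 and 0.771. Levels this low rest on few fragments: Hmmr was at 0.0310 FPKM in FISC iKO and 0.0311 in FISC WT, and Ttk at 0.0914 and 0.0459.

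**Figure D4:**
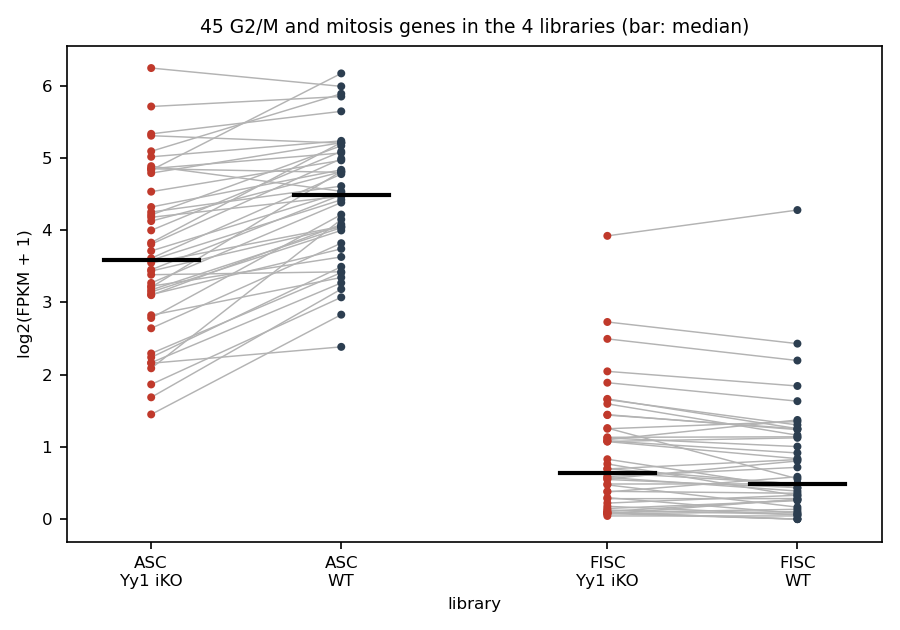
Level of each of the 45 genes (y axis, log2(FPKM + 1), FPKM as deposited) in the 4 libraries (x axis), lines joining a gene within a table and bars marking medians. The ASC iKO library lies below ASC WT for 41 genes, and both lie far above the fresh libraries. The FISC pair differs by less than 2-fold in every gene on this scale, as it must for genes under 1 FPKM in both.

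The list stood higher after activation in both genotypes. ASC and FISC values come from separate tables, possibly with separate normalization, and are described here after scaling each library to the same FPKM sum without small RNA genes. ASC iKO against FISC iKO, 43 of the 45 genes were at least 2-fold higher, against 23.2% of 11747 genes, with a median ratio of 2.38 on the log2 scale. ASC WT against FISC WT, all 45 were, against 34.1% of 11942 genes, with a median of 3.90. With FPKM as deposited the medians were 2.72 in iKO and 3.73 in WT cells. The 2 exceptions in iKO cells were Bub1b, with a ratio of 0.10 in iKO and 2.07 in WT cells, and Smc4, with 0.69 and 1.72, both already present before culture. With FPKM as deposited, 44 of the 45 were at least 2-fold higher in iKO cells. Smc4 then passed 2-fold, at 33.1 FPKM in ASC iKO and 14.2 in FISC iKO, and Bub1b did not. Kif20a was 2.64-fold higher after activation in iKO and 15.6-fold in WT cells, and Top2a 14.4-fold and 49.2-fold, with 1 added to scaled FPKM. Birc5 differed less, at 20.5-fold in iKO and 29.6-fold in WT cells, and Spc25 least, at 10.5-fold and 11.8-fold. For both genes the direction rests on the scaling. With 1 added to FPKM as deposited, both rose more in iKO than in WT cells. Deposited levels of Birc5 were 74.9 FPKM in ASC iKO and 1.71 in FISC iKO, and 62.7 in ASC WT and 1.38 in FISC WT. Those of Spc25 were 28.6 and 1.11, and 22.3 and 1.18.

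Set side by side, the iKO ratio was lower in ASC than in FISC for 43 of the 45 genes, and by at least 2-fold for 18, with a median difference of −0.77. Of the 10251 genes measured in both states, 49.2% were below 0, 7.92% were at least 2-fold lower and 8.72% at least 2-fold higher, with a median difference of 0.02. Prc1, listed at 13.2 FPKM in ASC iKO and 36.1 in ASC WT, stood the other way in fresh cells at 2.15 FPKM in FISC iKO and 1.47 in FISC WT. The largest differences among the 45 were Kif20a (−2.09) and Prc1 (−1.74), and Spc25 was at the other end with 0.40. Since most of the 45 were under 1 FPKM in fresh cells, their FISC ratio is held near 0 by the added 1. For them the difference mostly restates the ASC ratio. The all-gene shares cover genes measured in both states, as only 18 of the 45 were. Among those 18, only Prc1, Bub1b (−1.41), Smc2 (−1.35), Ncapd2 (−1.26) and Kif23 (−1.22) were lower by at least 2-fold.

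Genes of related roles were set beside the list in activated cells. A list of 81 other G2/M and mitosis genes had a median of −0.46, with 60 below 0, 15 at least 2-fold lower (18.5%, against 8.26% of all genes measured) and 3 higher. Casc5, a kinetochore scaffold, stood at 0.298 FPKM in ASC iKO and 4.77 in ASC WT, and Cit, a kinase of the furrow, at 0.474 and 3.97. On the other side Pttg1, which encodes securin, the inhibitor of separase, was at 80.4 FPKM in ASC iKO and 26.3 in ASC WT, and Cenpw, a small kinetochore protein, at 17.1 and 5.25. Securin was thus higher while separase, given above, was lower. The 16 genes of the anaphase-promoting complex and its partners had a median of 0.10, which upper-quartile scaling turned to −0.03, with 0 at least 2-fold lower. Among them the scaffold Anapc1 stood at 17.0 FPKM in ASC iKO and 32.7 in ASC WT, and the small catalytic subunit Anapc11 at 30.5 and 12.6. The 10 cohesin genes were all below 0, against 50.2% of all genes measured, with a median of −0.51. Lowest was Pds5a, a regulator of cohesin release, at 5.81 FPKM in ASC iKO and 45.2 in ASC WT. It was the only one past 2-fold (10%, against 8.26% of all genes measured).

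Genes for MuvB, E2F and NF-Y proteins lay on both sides of 0. The 18 of them had a median of −0.33, with 12 below 0 and 2 at least 2-fold lower (11.1%, near the 8.26% of all genes measured). Those were E2f7, a repressive E2F, at 1.52 FPKM in ASC iKO and 4.40 in ASC WT, and Rbl1, which encodes the pocket protein p107, at 7.35 and 16.7. Lin37, a MuvB subunit, was at 25.3 and 12.8 FPKM, and Nfyc, an NF-Y subunit, at 59.0 and 44.2. The G1/S and DNA replication list of 44 genes had a median of −0.27, with 5 at least 2-fold lower and 1 higher, a share lower of 11.4% that lies near the 8.26% of all genes measured. Among the 44 were Pola1 at 5.97 FPKM in ASC iKO and 18.1 in ASC WT and Rpa3 at 92.9 and 45.6. With the median of genes of like length subtracted, the ASC medians were −0.46 for other mitotic genes and 0.01 for the anaphase-promoting complex. They were −0.32 for cohesin, −0.21 for MuvB, E2F and NF-Y genes and −0.30 for G1/S genes. Of the MuvB, E2F and NF-Y genes, 0 were then at least 2-fold lower. In fresh cells the medians over measured genes of these 5 lists ran from −0.04 to 0.18. Genes at least 2-fold lower in ASC iKO, leaving out the 45, held the CHR core in 10.7% of 823 windows, against 11.6% of 10967 windows of all genes measured in ASC. Within the 36 genes with a window, the 29 with TTTGAA had a median ratio of −0.98 and 14 were at least 2-fold lower. The 7 without it had −0.50 and 2, and this difference was not tested. Of those 7, Cenpe, Birc5 and Ccnb1 held the variant TTTAAA, as did some of the 29.

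**Figure D5:**
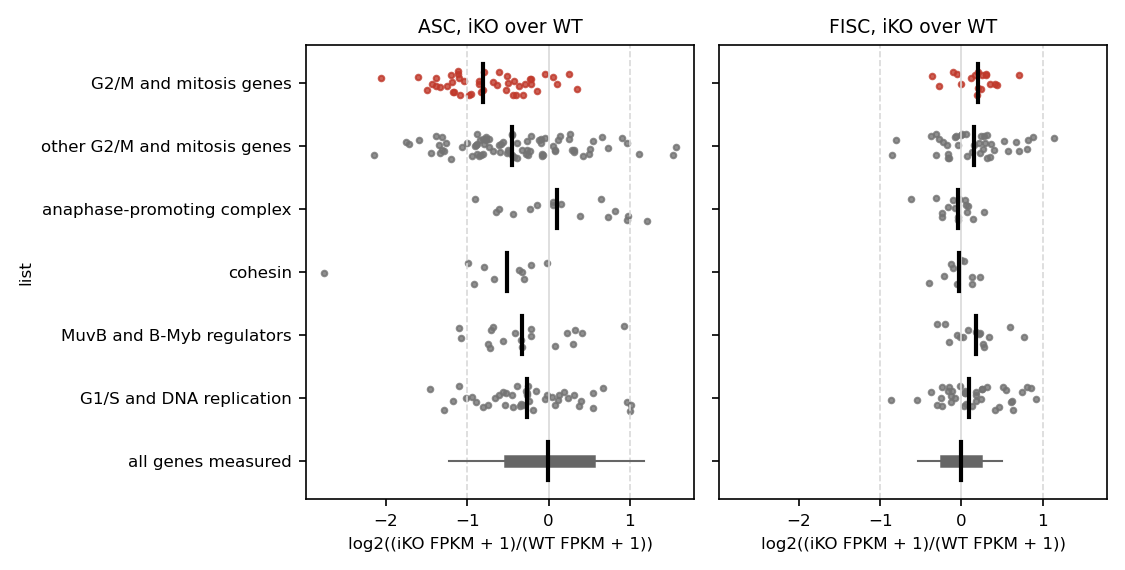
Log2 ratio of iKO to WT (x axis) in ASC (left) and FISC (right) for each gene with at least 1 FPKM in 1 library of the pair, by list (y axis), with black bars at medians, dashed lines at 2-fold, and for all measured genes the central 50% (thick) and 90% (thin). The 45 mitotic genes have the lowest median in ASC (−0.81) of the 6 lists drawn and all measured genes.

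The share of the 45 genes with a YY1 peak nearby was close to that of all genes. Of 2031 deposited peaks, a summit lay within 2 kb of either end of the listed locus for 2 of the 45 genes (4.44%), against 6.21% of the 11215 genes measured in ASC. Most of these peaks were weak, as 328 of the 2031 had a −log10 q of at least 2 and the median was 0.246. At Ndc80 the peak chr17:71876345-71876467 (mm9) had its summit 209 bases outside the locus, with a fold of 5.57 over background and a −log10 q of 3.07, where fold, p and q of a peak are the authors' values. At Aurka the peak chr2:172196378-172196470 had its summit 351 bases outside the locus and within 2 kb of Cstf1, with a fold of 3.62 and a −log10 q of 0. Neither gene was 2-fold lower in the iKO library, at −0.40 for Ndc80 and −0.84 for Aurka. Ccnb2 and Ncaph each held 1 peak inside the locus, with −log10 q of 0.246 and 1.07. For 37 of the 45 genes the nearest summit was over 50 kb from either end, and the median distance was 175 kb. No like values over all genes are given here, so these distances do not set the 45 apart.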

How the data were processed

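Polyadenylated RNA of 4 satellite cell libraries and 1 YY1 peak list with its input were used, 1 library per group. The values deposited by the authors are FPKM per gene, per the file headers, in 1 table for ASC and 1 for FISC. Per the submitters' processing notes, mm9 was the build and MACS2 2.1.0, Cufflinks 2.2.1 and TopHat2 were among the tools, with no role stated. The annotation, strand setting and scaling behind the FPKM were not found in the labels or headers, and total depth is unknown. The deposited peak list, called on 1 library, holds for each peak the authors' score, fold (ratio) over background, −log10 p and −log10 q, and the summit offset. The lowest −log10 p was 4.02.

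From these, log2 ratios with 1 added were computed with Python 3.11.15 and pandas 2.3.3 for genes with at least 1 FPKM in 1 library of a pair, and checked on simulated data. With no replicates, no test was run. All 45 genes could be named, and of the other lists the 2 highest and 2 lowest ratios per state and all cell markers. Exosc9, Elovl1, Brd8, Lcorl, Gm3414 and Cstf1 were named after their position was seen. Alternatives were another pseudocount, filters, thresholds, scalings, length bins and peak limits, and scaling to equal sums and RefSeq gene length were added after seeing the data. The genes, lists and comparisons were chosen with earlier results of these data known. The pseudogene Kif4-ps was at 0 in all 4 libraries. RefSeq promoter windows and gene lengths came from GRCm38.p6, locus coordinates and peaks from mm9, and no coordinate was converted. Relative depth used genes at up to 0.3 FPKM in both libraries of a pair whose FPKM ratio lay within 0.5% of the commonest ratio (24.4% of 1542 genes in FISC and 12.0% of 1573 in ASC).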

Additional observations from a re-analysis of the deposited data

Results flagged for a closer look

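Prc1, which bundles the central spindle, stood on opposite sides of 0 in the 2 states, with a ratio of −1.39 in ASC and 0.35 in FISC. It was at 13.2 FPKM in ASC iKO and 36.1 in ASC WT, and at 2.15 FPKM in FISC iKO and 1.47 in FISC WT, so that the ASC ratio minus the FISC ratio was −1.74. With 1 library per group the difference was not tested. Bub1b, Ncapd2, Smc2 and Kif23 also passed the filter in fresh cells, stood above 0 there and had an ASC ratio lower by at least 2-fold, but from smaller FISC ratios of 0.30, 0.30, 0.17 and 0.24.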

How the results depend on the processing

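In activated cells the median of the 45 genes stayed between −0.76 and −0.94 and the count at least 2-fold lower between 14 and 19 under another pseudocount, other filters, upper-quartile scaling, centring, subtraction of the length decile and without members at a shared locus (15 of 36). A 1.5-fold threshold gave 27 lower, and scaling to equal sums 29 lower with a median of −1.35. In fresh cells the median over measured genes was 0.20, and became 0.31 with a pseudocount of 0.1, 0.0918 with no filter and −0.0287 at 5 FPKM, where only Bub1b and Smc4 were left. Of the 18 members that passed the filter in fresh cells, 1 was higher with a pseudocount of 0.1 and also 1 at a 1.5-fold threshold. The all-gene shares at these settings are not given here. The count of members whose ASC ratio was at least 2-fold below the FISC ratio, 18, became 1 of 2 at 5 FPKM in both states and 6 of the 18 members measured in both states after subtraction of the length decile, as fewer genes were left. The activation median in iKO cells became 3.62 with a pseudocount of 0.1. With only peaks of −log10 q of at least 2, the members with a peak were 1 of 45, Ndc80, against 3.26% of 11215 genes. No paired analysis was possible because each group has 1 library and the labels carry no replicate numbers. In fresh cells most of the 45 genes lay under 1 FPKM, where the added 1 sets the size of a ratio.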
